A study of Rattus norvegicus with 25 samples.

Results

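Bile acid sensing genes were followed as a set of 4 Ensembl rat gene IDs in RNA from rat small intestine after gastric bypass or sham surgery. Of these, 3 of the 32883 IDs in the deposited count table were analysed, ENSRNOG00000007197, ENSRNOG00000007229 and ENSRNOG00000020899, and 1 listed ID is not analysed here. The list from which they were taken calls the first Nr1h4 and the second Nr0b2. The count table does not pair IDs with symbols, and 0 of the IDs could be matched in the reference tables. Those names were therefore not checked, every value below belongs to the ID as counted, and no name is given to ENSRNOG00000020899. That ID was chosen by its deposited counts, which were high in the ileum and low elsewhere, so its levels are described without a test in both cohorts.

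As background, bile acids released into the gut are sensed by nuclear receptors, transcription factors that switch genes on when a small molecule binds them. The best known is the farnesoid X receptor, FXR, encoded by Nr1h4. Among the genes it activates is Nr0b2, which encodes SHP, a nuclear receptor without a DNA-binding domain that represses other transcription factors. In the ileum, where most bile acid is taken back up, FXR also activates a fibroblast growth factor hormone that tells the liver to make less bile acid. After Roux-en-Y gastric bypass (RYGB), bile enters through a separate limb and meets food only in the common limb, so the alimentary limb carries food without bile.

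The first cohort held 12 libraries in 4 groups of 3, for which the labels give no strain or age. These were the alimentary limb after RYGB (RYGB_AL), sham jejunum (Sham_JEJU), the common limb after RYGB (RYGB_CL) and sham ileum (Sham_IL). The OLE cohort held 13 libraries from Otsuka Long-Evans Tokushima Fatty (OLETF) rats, a model of obesity with diabetes, whose age is not given. Its groups were sections that the submitters called glucotonic after RYGB (Glucotonic_OLE, 4 numbers), non-glucotonic sections after RYGB (Nonglucotonic_OLE, the same 4 numbers) and sham distal intestine (Sham_OLE, 3 numbers). The number in a sample title stands for the sample here, and the libraries of number 13 were summed within a group. No treatment other than surgery is given for any group. The labels do not say that each sample is a separate animal, so the p-values here reflect a sample-to-sample spread that may in part be technical.

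Library totals ran from 23.7M to 49.3M counts in the first cohort and from 18.1M to 25.6M counts in the OLE cohort. A single ID took 35.5% to 52.6% of the counts of each OLE library, against 0.183% to 1.47% in the first cohort. Levels are CPM, counts divided by a library size that was scaled with TMM within a cohort, unless stated otherwise. They are not divided by gene length, so they compare samples for 1 ID and not IDs with each other. Overlap between groups is described for the members only, and the share of all IDs without overlap is not given here. Without symbols the labelled tissues could not be checked against named markers. A segment index was built instead from 200 IDs higher in sham ileum and 200 IDs higher in sham jejunum, members left out, with 0 at the mean of Sham_JEJU and 1 at the mean of Sham_IL. On this index Sham_OLE 4, labelled distal intestine, lay at 0.119, near the jejunum, while Sham_OLE 22 and Sham_OLE 23 lay at 0.754 and 0.958. The members' log2 changes against Sham_OLE are therefore also given without sample 4. The order over all groups, the correlations over OLE samples and the count ratios below include it.

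In the alimentary limb against sham jejunum the 2 members tested moved in opposite directions. ENSRNOG00000007197, listed as the receptor, rose 2.36-fold, and ENSRNOG00000007229, listed as its target gene, fell to 0.0566 of its Sham_JEJU level. Both passed the test over all 16146 IDs, of which 7.66% passed, 4.45% as higher and 3.21% as lower. The test was edgeR's quasi-likelihood test, and passing means an adjusted p (Benjamini-Hochberg) under 0.05. ENSRNOG00000020899 was counted in all RYGB_AL libraries and hardly at all in Sham_JEJU. In bulk tissue, fewer cells of a type and less RNA per cell cannot be told apart.

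The level of ENSRNOG00000007197 was 112, 140 and 165 CPM in the RYGB_AL libraries 1-1, 2-3 and 15-29, against 46.8, 70.9 and 59.1 CPM in the Sham_JEJU libraries 8-15, 14-28 and 15-30. All RYGB_AL libraries lay above all Sham_JEJU libraries. The means were 139 ± 26.1 CPM in RYGB_AL and 58.9 ± 12.05 CPM in Sham_JEJU (SD, n = 3 each), and the log2 change was 1.24 ± 0.31 (SE; edgeR adjusted p = 0.0296). The size of the change was stable when single libraries were left out (log2 1.10 to 1.39), but the call was not. The adjusted p was 0.106 without RYGB_AL 2-3, 0.117 without RYGB_AL 15-29, 0.103 without Sham_JEJU 8-15, 0.0697 without Sham_JEJU 14-28 and 0.0755 without Sham_JEJU 15-30 (edgeR), against 0.0357 without RYGB_AL 1-1 and 0.00304 by DESeq2.

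ENSRNOG00000007229 stood at 0.770, 0.631 and 0.375 CPM in the same RYGB_AL libraries, which rest on 26, 26 and 12 counts. In Sham_JEJU it was at 8.04, 14.2 and 9.45 CPM, from 306, 389 and 383 counts. The highest RYGB_AL library lay about an order of magnitude below the lowest Sham_JEJU library. Mean levels were 0.592 ± 0.2002 CPM in RYGB_AL and 10.6 ± 3.25 CPM in Sham_JEJU (SD, n = 3 each), a 17.7-fold lower level after surgery (log2 change -4.14 ± 0.77 SE, edgeR adjusted p = 0.00928). Without RYGB_AL 15-29 the adjusted p was 0.0531 at a log2 change of -3.91 (edgeR).

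**Figure D1:**
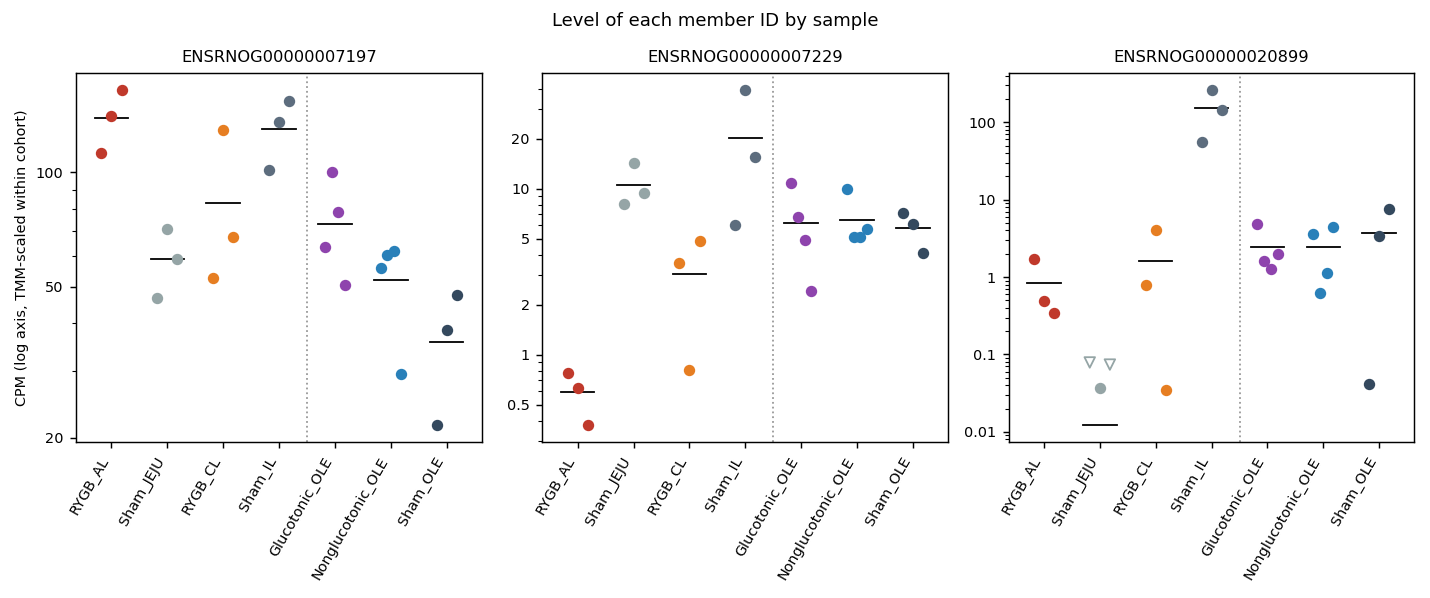
Level of each member ID in CPM (log axis, TMM-scaled within each cohort), 1 point per sample and a line at each group mean; open triangles mark samples without a count, drawn at the level that 3 counts would give. The dotted line parts the first cohort from the OLE cohort. ENSRNOG00000007229 is lowest in RYGB_AL, at 0.375 to 0.770 CPM. ENSRNOG00000020899 is highest in Sham_IL, at 56.2 to 262 CPM, which is the pattern it was chosen for.

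The counts of ENSRNOG00000020899 were 57, 20 and 11 in RYGB_AL 1-1, 2-3 and 15-29, against 0, 1 and 0 in Sham_JEJU 8-15, 14-28 and 15-30. In the Sham_JEJU libraries without a count, a level of up to 0.0789 CPM (8-15) and 0.0741 CPM (15-30) is allowed, at 3 counts per library. Every RYGB_AL library, at 0.344 to 1.69 CPM, lay above those limits. Summed over the groups, 88 counts in RYGB_AL stood against 1 in Sham_JEJU, and 57 of the 88 came from library 1-1. The segment index was 0.0327 to 0.152 in RYGB_AL and -0.0835 to 0.123 in Sham_JEJU. The overlap came from Sham_JEJU 14-28 (0.123), since Sham_JEJU 8-15 (-0.0835) and 15-30 (-0.0399) lay below all RYGB_AL libraries. Whether segment had a part in these counts was not tested.

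In the common limb against sham ileum neither tested member passed. Among all 16146 IDs 0% passed with edgeR, against 93 IDs by DESeq2 and 1268 IDs whose raw edgeR p lay under 0.05. ENSRNOG00000007229 was at 3.56, 0.809 and 4.86 CPM in RYGB_CL 1-1, 2-3 and 15-29, against 6.06, 39.3 and 15.6 CPM in Sham_IL 8-15, 14-28 and 15-30. The groups did not overlap, but the highest Sham_IL library was 6.49 times the lowest. Means were 3.08 ± 2.07 CPM in RYGB_CL and 20.3 ± 17.1 CPM in Sham_IL (SD, n = 3 each), and the log2 change was -2.73 ± 0.70 (SE; edgeR adjusted p = 0.458). Leaving out 1 library gave log2 changes of -3.23 to -1.82, the smallest of them without Sham_IL 14-28 (edgeR adjusted p = 0.778). DESeq2 gave this ID an adjusted p of 0.00627, so the call depended on the tool.

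ENSRNOG00000007197, the listed receptor, was at 52.7, 129 and 67.7 CPM in the same RYGB_CL libraries, against 101, 136 and 154 CPM in Sham_IL. RYGB_CL 2-3 lay within the range of Sham_IL and both other RYGB_CL libraries below it. The log2 change was -0.65 ± 0.30 (SE; edgeR adjusted p = 0.639), and -1.11 without RYGB_CL 2-3 (adjusted p = 0.116, edgeR).

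For ENSRNOG00000020899 the gap between these groups was wide. It had 25, 161 and 1 counts in RYGB_CL 1-1, 2-3 and 15-29, against 1513, 7782 and 4251 counts in Sham_IL 8-15, 14-28 and 15-30. These are 0.782, 4.07 and 0.0352 CPM in RYGB_CL, against 56.2, 262 and 146 CPM in Sham_IL, with no overlap. Summed counts gave a level 84.4-fold lower in RYGB_CL, where library 2-3 held 161 of 187 counts. The fitted log2 change was -6.52, and it was -8.50 without RYGB_CL 2-3 and -5.91 without Sham_IL 14-28. The ID was chosen for its high level in the ileum, so this gap is not offered as a test of surgery. The segment index was also lower in RYGB_CL, at 0.587, 0.786 and 0.419, against 0.947 to 1.06 in Sham_IL, and its part in the result was not tested. The index IDs were picked in the sham samples themselves, so other groups can fall below Sham_IL through that choice alone. Within RYGB_CL, the library highest on the index (2-3) had the most counts of this ID and the library lowest on it (15-29) had 1. Sham_OLE ran the same way, but the other groups after RYGB did not. In RYGB_AL the library highest on the index (15-29, 0.152) had the fewest counts, 11. In Nonglucotonic_OLE the sample lowest on it (19, 0.509) had the highest level, 4.46 CPM. In Glucotonic_OLE the sample highest on it (16, 0.881) had 1.62 CPM, against 4.86 CPM in 13 (0.749).

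For the receptor ID the log2 surgery effect was 1.24 for the alimentary and -0.65 for the common limb. The difference between those effects was 1.89 ± 0.43 (SE) and missed the threshold (edgeR interaction test, adjusted p = 0.0822). Of 16146 IDs 0.607% passed that test, 0.508% with a positive and 0.0991% with a negative difference. The receptor ID passed it by DESeq2 (adjusted p = 0.00442), which called 568 IDs there against 98 by edgeR. It also passed without RYGB_CL 2-3 (2.35, adjusted p = 0.0115, edgeR) and with the number as a replicate block (adjusted p = 0.0453, edgeR). In 13 of 16 alternative fits it did not pass. Leaving out any other single library gave an adjusted p of 0.0892 to 0.2135 (edgeR). For ENSRNOG00000007229 the difference was -1.41 with an approximate 95% interval of -3.33 to 0.50 (adjusted p = 0.608, edgeR).

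**Figure D2:**
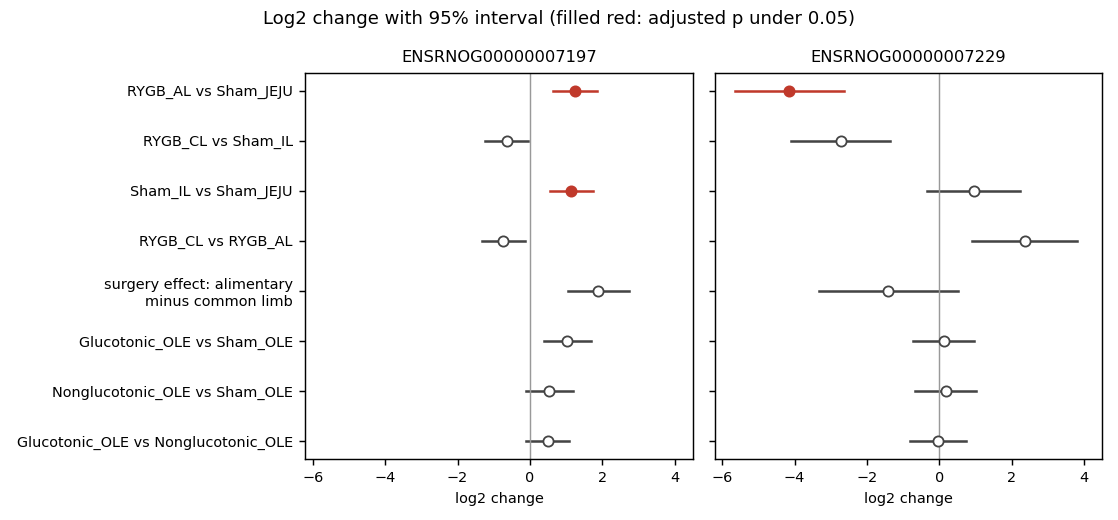
Log2 change of ENSRNOG00000007197 and ENSRNOG00000007229 in each comparison (x axis), with an approximate 95% interval from its SE; filled red points have an adjusted p under 0.05 (edgeR). The changes that passed were 1.24 and 1.14 for ENSRNOG00000007197 and -4.14 for ENSRNOG00000007229. ENSRNOG00000020899, chosen by its counts, is not drawn. The intervals are narrower than the test implies, so 1 that leaves out 0 need not have a raw p under 0.05.

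Along the intestine of sham rats, ENSRNOG00000007197 rose 2.21-fold in the ileum relative to the jejunum, a comparison in which 9.22% of 16146 IDs passed, 2.75% as higher and 6.47% as lower in the ileum. It was at 101, 136 and 154 CPM in Sham_IL 8-15, 14-28 and 15-30, against 46.8, 70.9 and 59.1 CPM in Sham_JEJU of the same numbers. The sections did not overlap, so the ileum was necessarily higher in 3 of 3 numbers (log2 change 1.14 ± 0.31 SE, edgeR adjusted p = 0.0395). Leaving out 1 library gave log2 changes of 1.00 to 1.32. The call was lost without Sham_JEJU 8-15, Sham_JEJU 15-30, Sham_IL 8-15, Sham_IL 14-28 or Sham_IL 15-30 (adjusted p = 0.130, 0.108, 0.0755, 0.0806 and 0.141 in that order, edgeR).

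ENSRNOG00000007229 differed less between sham segments than among the ileal libraries. It was at 20.3 ± 17.1 CPM in Sham_IL and 10.6 ± 3.25 CPM in Sham_JEJU (SD, n = 3 each), and the groups overlapped (log2 change 0.94 ± 0.66 SE, edgeR adjusted p = 0.366). Sham_IL 14-28 carried most of that difference: without it the log2 change was 0.03. The same library was also the highest of its group for ENSRNOG00000020899. For that ID, 13546 counts in Sham_IL stood against 1 in Sham_JEJU, which is the pattern it was chosen for.

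After surgery neither tested member passed between the limbs with all libraries. The receptor ID was lower in the common limb than in the alimentary limb in 3 of 3 numbers, at 52.7 against 112 CPM in number 1-1, 129 against 140 CPM in 2-3 and 67.7 against 165 CPM in 15-29. The log2 change of RYGB_CL against RYGB_AL was -0.74 ± 0.30 (SE) and did not pass (edgeR adjusted p = 0.132). Of 16146 IDs 9.32% passed, 4.15% as higher and 5.17% as lower in the common limb. ENSRNOG00000007229 did not overlap between the limbs and so was necessarily higher in the common limb in 3 of 3 numbers. It was at 3.56 against 0.770 CPM, 0.809 against 0.631 CPM and 4.86 against 0.375 CPM in the same order. Its log2 change was 2.35 ± 0.74 (SE; edgeR adjusted p = 0.0685). In number 2-3 both limbs were nearly alike for both IDs. Without RYGB_CL 2-3 both comparisons passed, at -1.21 (adjusted p = 0.0305, edgeR) and 2.81 (adjusted p = 0.0412, edgeR), and by DESeq2 ENSRNOG00000007229 passed with all libraries (adjusted p = 0.00388). ENSRNOG00000020899 was higher in the common limb in number 2-3 only and lower in 1-1 and 15-29.

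**Figure D3:**
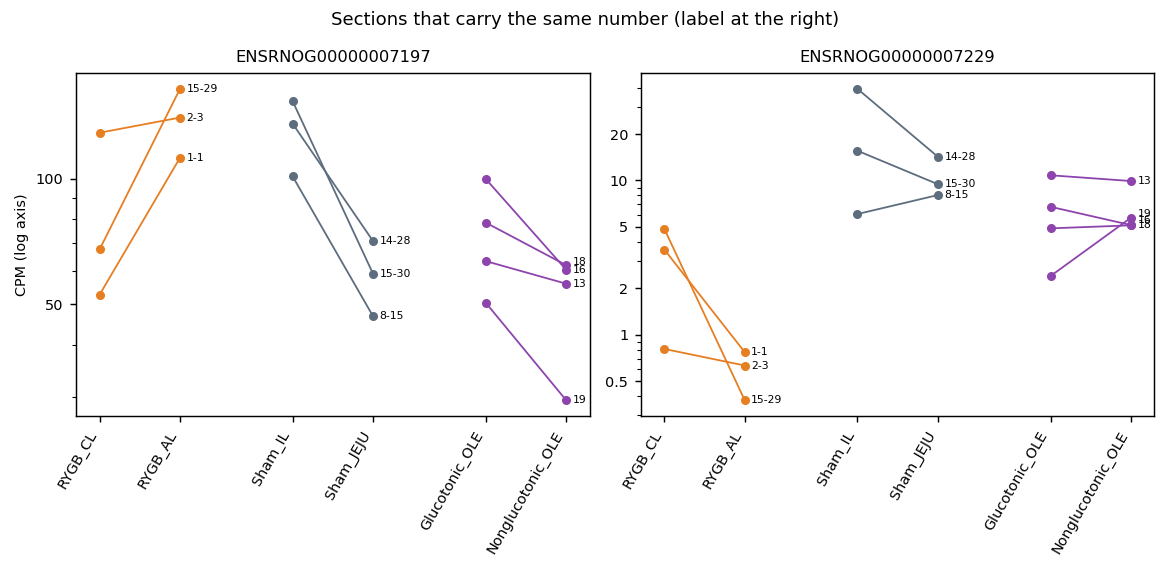
CPM (log axis) of ENSRNOG00000007197 and ENSRNOG00000007229 in sections that carry the same number, joined by a line, with the number at the right. RYGB_CL lies below RYGB_AL for ENSRNOG00000007197 and above it for ENSRNOG00000007229 in 3 of 3 numbers. The Glucotonic_OLE value of ENSRNOG00000007197 is above the Nonglucotonic_OLE value in 4 of 4.

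In OLETF rats neither tested member passed any test with all samples. Glucotonic sections against sham distal intestine came nearest for ENSRNOG00000007197. It was at 63.5, 99.9, 78.5 and 50.4 CPM in Glucotonic_OLE 13, 16, 18 and 19, against 21.6, 38.4 and 47.4 CPM in Sham_OLE 4, 22 and 23. The groups did not overlap, and sample 19 was the lowest glucotonic section. Means were 73.1 ± 21.3 CPM in Glucotonic_OLE (SD, n = 4) and 35.8 ± 13.1 CPM in Sham_OLE (SD, n = 3), and the log2 change was 1.03 ± 0.33 (SE; edgeR adjusted p = 0.189). Of 14495 IDs 0.0345% passed, 0.0276% as higher and 0.0069% as lower. The log2 change of ENSRNOG00000007197 was 1.17 and passed when both sections of number 19 were left out (adjusted p = 0.0247, edgeR). In that fit 1862 IDs passed, against 5 with all samples, so the pass was 1 of many. Without Sham_OLE 4 the change was 0.75 (adjusted p = 0.221, edgeR), and without Sham_OLE 23 it was 1.28 (adjusted p = 0.221, edgeR). All Sham_OLE libraries came from lane 7, and a fit with a lane 7 term, in which number 13 is the one RYGB number with libraries from that lane, gave 0.64 ± 0.41 (SE; edgeR adjusted p = 0.608).

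Nonglucotonic sections had 56.0, 60.5, 62.1 and 29.4 CPM of the same ID in numbers 13, 16, 18 and 19, against the Sham_OLE values above, and overlapped them. The log2 change was 0.54 ± 0.33 (SE, edgeR adjusted p = 0.789), 0.26 without Sham_OLE 4 and 0.79 without Sham_OLE 23. In the fit with a lane 7 term it was 0.22 ± 0.41 (SE). In this comparison 0% of 14495 IDs passed with edgeR, 27 IDs passed by DESeq2 and 936 had a raw edgeR p under 0.05. Both contrasts use the same sham samples. Set against each other, glucotonic sections were above non-glucotonic sections in 4 of 4 numbers, by 1.13 to 1.72 times. The log2 difference was 0.49 ± 0.30 (SE; edgeR adjusted p = 1). Without pairing by number, 0% of IDs passed with edgeR, 3 IDs passed by DESeq2 and 388 had a raw edgeR p under 0.05. With the number as a replicate block 25 IDs passed, and this ID, at 0.50 ± 0.11 (SE), did not (edgeR adjusted p = 0.125).

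ENSRNOG00000007229 was at 10.8, 6.75, 4.89 and 2.401 CPM in Glucotonic_OLE 13, 16, 18 and 19, at 9.92, 5.14, 5.12 and 5.74 CPM in Nonglucotonic_OLE of the same numbers, and at 7.11, 6.15 and 4.08 CPM in Sham_OLE 4, 22 and 23. All groups overlapped. Against Sham_OLE the log2 change was 0.12 in Glucotonic_OLE, with an approximate 95% interval of -0.73 to 0.96, and 0.17 in Nonglucotonic_OLE, with one of -0.67 to 1.01 (adjusted p = 0.916 and 0.944, edgeR). A fall as large as the -4.14 of the alimentary limb lies outside both intervals, although cohort and segment differ too and the first cohort's strain is not given. Without Sham_OLE 4 these changes were 0.28 and 0.33, and without Sham_OLE 23 they were -0.07 and -0.02. In the fit with a lane 7 term they were 0.67 ± 0.56 and 0.69 ± 0.58 (SE).

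ENSRNOG00000020899 was scarce in the OLE cohort. It had 238, 32, 26 and 38 counts in Glucotonic_OLE 13, 16, 18 and 19, and 163, 13, 26 and 105 counts in Nonglucotonic_OLE of the same numbers, against 1, 70 and 160 counts in Sham_OLE 4, 22 and 23. Mean levels were 2.43 ± 1.65 CPM in Glucotonic_OLE (SD, n = 4), 2.46 ± 1.87 CPM in Nonglucotonic_OLE (SD, n = 4) and 3.67 ± 3.79 CPM in Sham_OLE (SD, n = 3). Sham_OLE was spread widely, from 0.0416 CPM in sample 4, the sample near the jejunum on the segment index, to 7.60 CPM in sample 23. The fitted log2 changes against Sham_OLE were -0.55 in Glucotonic_OLE and -0.56 in Nonglucotonic_OLE. Their direction rested on Sham_OLE 23, without which they were 0.55 and 0.55. They stayed negative without Sham_OLE 4, at -1.14 and -1.15, and without Sham_OLE 22, at -0.61 and -0.62. The glucotonic section was higher than the non-glucotonic section in 3 of 4 numbers and lower in number 19.

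**Figure D4:**
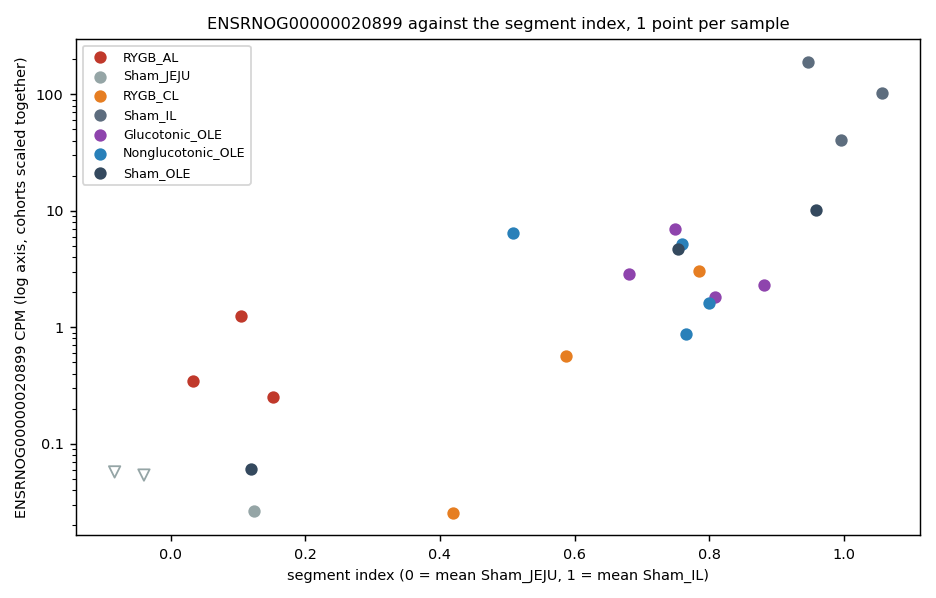
ENSRNOG00000020899 in CPM (log axis, both cohorts TMM-scaled together) against the segment index, 1 point per sample; open triangles are samples without a count, drawn at the level of 3 counts. Sham_OLE 4 lies at an index of 0.119 beside the sham jejunum. The Sham_IL samples stand above all others at 40.2 to 189 CPM, the pattern the ID was chosen for. Segment IDs exclude this ID, but the Sham_JEJU and Sham_IL samples set the scale.

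For an order over all 7 groups the libraries of both cohorts were scaled together. ENSRNOG00000007197 then ran from 105 ± 30.1 CPM in Glucotonic_OLE over 101 ± 18.2 in RYGB_AL, 93.2 ± 18.7 in Sham_IL, 74.4 ± 21.6 in Nonglucotonic_OLE, 61.0 ± 30.7 in RYGB_CL and 49.4 ± 16.4 in Sham_OLE to 42.8 ± 8.80 CPM in Sham_JEJU (SD). Each neighbour in this order overlapped the next. ENSRNOG00000007229 ran from 14.6 ± 12.4 CPM in Sham_IL to 2.23 ± 1.49 in RYGB_CL and 0.430 ± 0.149 CPM in RYGB_AL, with the OLE groups and Sham_JEJU at 7.68 to 9.30 CPM between them. There, only the steps from Sham_JEJU to RYGB_CL and from RYGB_CL to RYGB_AL had no overlap. ENSRNOG00000020899 was at 111 ± 74.8 CPM in Sham_IL, and its next group, Sham_OLE, was at 4.97 ± 5.06 CPM with no overlap. That top place is the pattern for which the ID was chosen. Its levels in Nonglucotonic_OLE, Glucotonic_OLE, RYGB_CL and RYGB_AL, at means of 3.54, 3.497, 1.20 and 0.614 CPM, overlapped from neighbour to neighbour. The mean of Sham_JEJU, 0.00887 CPM, was the lowest. Sham_JEJU did not overlap RYGB_AL but did overlap RYGB_CL, where 15-29 was at 0.0255 CPM against 0.0266 CPM in Sham_JEJU 14-28. The cohort and the large share of counts taken by 1 ID in the OLE libraries cannot be told apart in any step between cohorts.

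The ID most like each member was sought among 10929 others by Pearson r of log2 CPM over the 12 first-cohort libraries, which share 4 groups. For ENSRNOG00000007197 it was ENSRNOG00000005810 (r = 0.936), which averaged 76.6 CPM in RYGB_AL, 48.7 in Sham_JEJU, 64.5 in RYGB_CL and 80.6 in Sham_IL. Over the 11 OLE samples, which were not used to pick it, its r was 0.825, and 2.84% of the IDs had a higher one. ENSRNOG00000006663 followed ENSRNOG00000007229 with r = 0.923, and with r = 0.457 in the OLE samples, where 13.4% of IDs were higher. For ENSRNOG00000020899 the most alike was ENSRNOG00000006700 (r = 0.901, and 0.712 in the OLE samples, with 0.640% of IDs higher). It varied far less, between group means of 8.09 CPM in Sham_JEJU and 13.9 CPM in Sham_IL.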

How the data were processed

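The TruSeq Stranded Total RNA kit with Ribo-Zero was used, per the labels' protocols. The submitters' processing notes name FastQC, STAR and rn6. Which program and annotation gave the counts, whether strand was used and how reads with several matches were handled is, in the sources used here, not given. The values deposited by the authors are whole-number counts per Ensembl gene ID without normalization. Each cohort was fitted with edgeR 4.0.16 (R 4.3.3): filterByExpr (at least 10 counts in enough libraries, 15 in total), TMM, a robust quasi-likelihood fit and Benjamini-Hochberg adjustment over all IDs tested. All 3 members passed the filter in both cohorts, ENSRNOG00000020899 through the groups in which it is high. An SE is the size of the log2 change over the square root of the F statistic, and approximate 95% intervals use 1.96 SE. They are narrower than the test implies. For ENSRNOG00000007197 in RYGB_CL against Sham_IL the interval was -1.24 to -0.051, although the raw edgeR p was 0.0545. DESeq2 1.42.0 was an alternative. Named IDs are the members and, for each, the 1 ID of highest Pearson r (mean of at least 5 CPM, tested in both cohorts, prior count 2). Lists of bile acid and marker genes could not be applied, since no ID has a symbol. Members, lists and tests were chosen with earlier results of these data known. The segment index was added after the data were seen.

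In the OLE cohort the main test between sections did not pair them by number, which was done only in the replicate block. For 13, 16, 18 and 19 the deviations from the group means correlated between sections at r = 0.467, 0.43, 0.341 and 0.811. Number 18 correlated more with another number (0.444), and no label says that a number is 1 rat.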

Additional observations from a re-analysis of the deposited data

Results flagged for a closer look

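ENSRNOG00000007229 was at 9.92 CPM in Nonglucotonic_OLE 13, far above the other samples of its group, which held 5.12 to 5.74 CPM. That sample is the sum of 2 libraries, which held 12.3 CPM (13-33) and 8.32 CPM (13-34). The glucotonic section of the same number was also the highest of its group, at 10.8 CPM. The 3 IDs in the 2 groups of 4 samples make 6 sets, which share samples, and 1 set held such a sample. The gap was judged against Dixon's 95% critical value, so chance alone marks about 1 set in 20.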

How the results depend on the processing

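For ENSRNOG00000007197 and ENSRNOG00000007229, 177 of 204 alternative values kept their direction and their side of the threshold, and 8 reversed, in 3 results. For ENSRNOG00000020899, described without a test, 8 of 102 values reversed, in 4 results. The cause was not tested. DESeq2 called more IDs: 2029 in RYGB_AL against Sham_JEJU, 93 in RYGB_CL against Sham_IL, 2639 in Sham_IL against Sham_JEJU, 2771 in RYGB_CL against RYGB_AL, 568 for the difference between the surgery effects, 523 in Glucotonic_OLE against Sham_OLE, 27 in Nonglucotonic_OLE against Sham_OLE and 3 between the sections after RYGB. The edgeR counts were 1237, 0, 1489, 1504, 98, 5, 0 and 0 in that order. By DESeq2, ENSRNOG00000007229 passed in RYGB_CL against Sham_IL (-2.73) and against RYGB_AL (2.37), and ENSRNOG00000007197 passed for the difference between the surgery effects (1.87). Without the filter, 1 ID was called in RYGB_CL against Sham_IL and 28 in Glucotonic_OLE against Sham_OLE. Fitting only the groups compared gave 432 in RYGB_CL against RYGB_AL and 0 in Glucotonic_OLE against Sham_OLE, where keeping the libraries of number 13 apart gave 31 and adding lane 7 to that gave 0. Leaving out number 19 gave 1862 and 157 IDs for Glucotonic_OLE and Nonglucotonic_OLE against Sham_OLE, and a log2 change of 1.17 for ENSRNOG00000007197 in Glucotonic_OLE. Between Glucotonic_OLE and Nonglucotonic_OLE it turned ENSRNOG00000007229 to 0.15, and ENSRNOG00000020899 was -0.014 by DESeq2 and -0.00064 with only the groups compared, all far within their errors.

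With 1 sample left out, the IDs called ranged from 484 to 1212 in RYGB_AL against Sham_JEJU, 0 to 56 in RYGB_CL against Sham_IL, 235 to 1580 in Sham_IL against Sham_JEJU, 396 to 2237 in RYGB_CL against RYGB_AL and 8 to 127 for the difference between the surgery effects. They ranged from 0 to 103 in Glucotonic_OLE and 0 to 3 in Nonglucotonic_OLE against Sham_OLE, and from 0 to 1 between those sections. The log2 change of ENSRNOG00000007197 ranged from 1.10 to 1.39 in RYGB_AL, from 1.00 to 1.32 in Sham_IL against Sham_JEJU, from -1.21 to -0.50 in RYGB_CL against RYGB_AL and from 1.64 to 2.35 for the difference between the surgery effects. That of ENSRNOG00000007229 ranged from -4.36 to -3.88 in RYGB_AL against Sham_JEJU and from 1.86 to 2.81 in RYGB_CL against RYGB_AL. In Glucotonic_OLE against Sham_OLE it ranged from -0.30 to 0.41, in Nonglucotonic_OLE against Sham_OLE from -0.11 to 0.33, and between those sections from -0.48 to 0.23. Fitted values of ENSRNOG00000020899, which depend on the prior count where Sham_JEJU enters, ranged from 4.997 to 7.81 in RYGB_AL against Sham_JEJU, 12.89 to 15.36 in Sham_IL against Sham_JEJU, -8.50 to -5.91 in RYGB_CL against Sham_IL, -0.98 to 1.99 in RYGB_CL against RYGB_AL and 11.51 to 14.48 for the difference between the surgery effects. In the OLE cohort they ranged from -1.18 to 0.55 in Glucotonic_OLE and from -1.15 to 0.55 in Nonglucotonic_OLE against Sham_OLE, and from -0.62 to 0.43 between those sections.

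With the number as a replicate block, 688 IDs were called in Sham_IL against Sham_JEJU, 907 in RYGB_CL against RYGB_AL and 25 between Glucotonic_OLE and Nonglucotonic_OLE, and ENSRNOG00000007197 passed for the difference between the surgery effects (1.98, edgeR adjusted p = 0.0453). No other call of a member changed under the block. In the first cohort the numbers were not taken as pairs: same-numbered deviations correlated at r = -0.0481 to 0.275, and 2 of 6 numbers correlated better with another. No paired analysis was possible because the groups share no numbers in RYGB_AL against Sham_JEJU, in RYGB_CL against Sham_IL and in both OLE comparisons with Sham_OLE. Scaling both cohorts together moved levels between cohorts and the order of groups. Low counts limit ENSRNOG00000007229 in RYGB_AL, at 12 to 26 counts per library, and ENSRNOG00000020899 outside Sham_IL.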

Other observations

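The listed receptor and the listed target were also set against each other within a library. For every 100 counts of ENSRNOG00000007197 there were 0.685, 0.450 and 0.228 counts of ENSRNOG00000007229 in RYGB_AL 1-1, 2-3 and 15-29, against 17.2, 20.1 and 15.99 in Sham_JEJU 8-15, 14-28 and 15-30. RYGB_CL 2-3, at 0.627, lay within the alimentary range, while RYGB_CL 1-1 and 15-29 lay at 6.76 and 7.17, against 5.98 to 28.95 in Sham_IL. In the OLE cohort the ratio ran from 4.76 to 17.0 in Glucotonic_OLE, from 8.25 to 19.5 in Nonglucotonic_OLE and from 8.61 to 33.0 in Sham_OLE, and all groups overlapped. The 33.0 belonged to Sham_OLE 4, while Sham_OLE 22 was at 16. This ratio was formed after the levels were seen and was not tested.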
